A study of Mus musculus with 2 samples.

Results

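Genes of actin stress fibres and focal adhesions were examined in mouse embryonic fibroblasts, primary connective tissue cells taken from the embryo, cultured with fibroblast growth factor 2 (Fgf2) or with no added agent. A set of 44 genes was drawn up by name, with earlier results of these data known, and every probe annotated with one of their symbols was taken. Of these, 35 had a named probe, among 16593 genes with one on the array, and they were read by 60 probes. No probe was named here for Tpm4, Flna, Flnc, Tes, Tgfb1i1, Ptk2, Tns1, Tns3 and Synpo, so the filamins were not analysed here.

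RNA was hybridised to Illumina expression bead arrays. The Fgf2 group held 1 culture and 1 array, and the group without an agent likewise held 1 culture and 1 array. Both cultures are labelled as male mouse embryonic fibroblasts, and the labels give neither the dose nor the duration of Fgf2. Without replicates, no value below has an error from cultures and no test between the groups was possible. The titles and agent labels name 1 culture as treated, whereas the design text describes both as lacking Fgf2, so each direction below rests on the titles and agents. Against the male label, Xist, the transcript of the inactive X chromosome, was detected on both arrays, with signals of 584.1 with Fgf2 and 476.6 without it.

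Stress fibres are bundles of actin filaments that contract through myosin II and end at focal adhesions, where integrins bind the matrix outside the cell. Tropomyosins and caldesmon lie along the filaments, alpha-actinins cross-link them, and talin, vinculin, kindlin, integrin-linked kinase and paxillin connect them to integrins. Many of the linking proteins carry LIM domains, zinc-binding folds, and several of these gather where the fibres are under tension. In fibroblasts many of these genes are targets of serum response factor (SRF) and its actin-regulated coactivators, the MRTFs.

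The fibroblasts given Fgf2 had lower signals for most stress fibre and focal adhesion genes, and the differences were mostly moderate. A difference is the log2 level with Fgf2 less the log2 level without it, after background correction and quantile normalization, so a negative value means a lower level with Fgf2. A gene was read from its brightest probe, and detection required a detection p under 0.01. Of the 35 genes, 26 were detected on both arrays, 2 on the array without Fgf2 only, 1 on the array with Fgf2 only and 6 on neither. Among the 26, 20 had a difference below 0, which was the case for 45.9% of all 6898 detected genes. At least 2-fold lower were 4 of them, beside 2.52% of all detected genes, and at least 2-fold higher was 1, beside 1.8%. At least 1.5-fold lower were 13 of the 26, beside 7.25% of all, and at least 1.5-fold higher were 3, beside 6.76%. The median difference of the 26 genes was -0.61, and that of all detected genes 0.03.

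**Figure D1:**
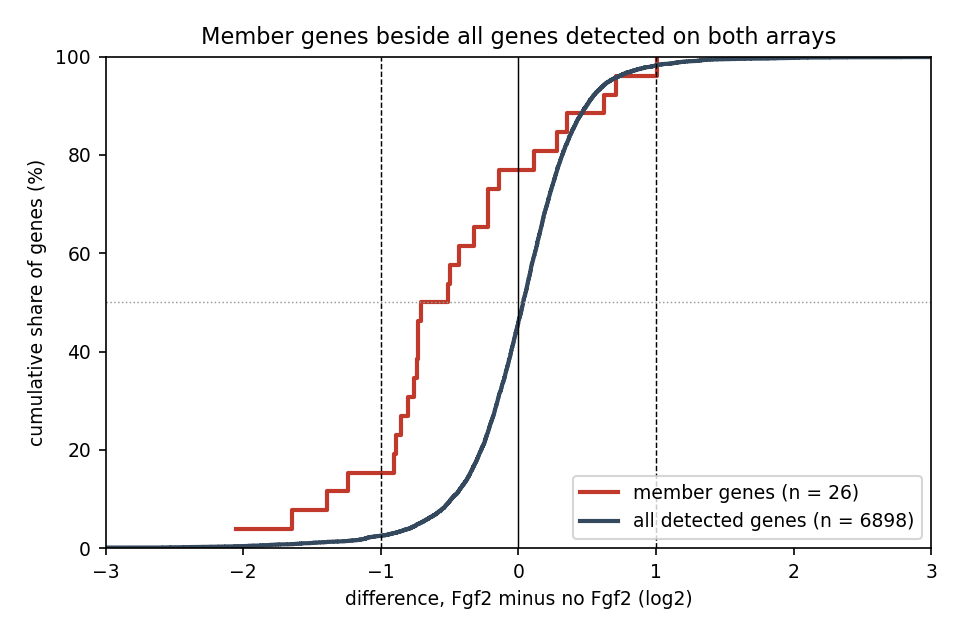
Cumulative share of genes (y axis, %) against the difference, Fgf2 minus no Fgf2 (x axis, log2), for the 26 detected stress fibre and focal adhesion genes and for all 6898 detected genes, with dashed lines at 2-fold. The curve of the 26 genes lies to the left of the other over most of its range, with medians of -0.61 and 0.03, and the curves cross on the high side, where Pdlim2, Evl and Pxn lie.

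The detected genes were bright, with a median signal percentile of 94.05 among all probes and a range from 67.6 to 99.8. In the upper part of detected genes by level, from the median up, 6.58% were at least 1.5-fold lower and 2.46% at least 2-fold lower, and the counts were 10 and 3 of the 22 members there. As a scale of measurement error within this pair of arrays, the differences of detected probes that share a gene had a pooled SD of 0.218 over 1749 genes, and of 0.308 over the 7 members that had several. This spread can include real differences between transcripts and says nothing of the spread between cultures. All 7 of these members had every detected probe on the same side of 0. The share of the 1749 genes with such agreement is not given here, so this count has no background beside it.

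**Figure D2:**
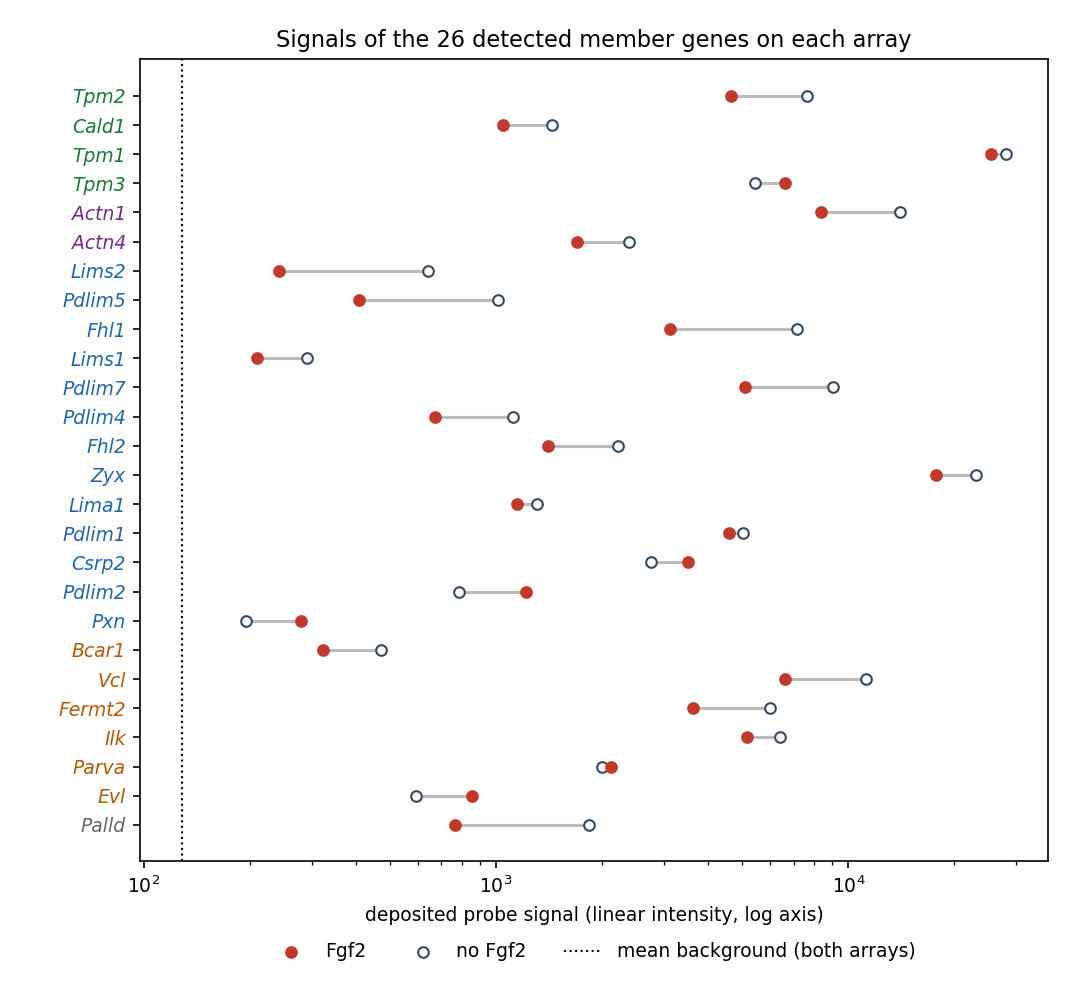
Deposited probe signals (x axis, linear intensity on a log axis) of the 26 detected genes on the array with Fgf2 (filled) and the array without it (open), with gene names coloured by class and the mean background as a dotted line. In 20 of the 26 genes the point with Fgf2 lies to the left; signals of different probes are not comparable with each other.

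The tropomyosins, coiled-coil proteins that polymerise along actin filaments, did not move together. Tpm2, a muscle-type tropomyosin also made in fibroblasts, had a signal of 4632 with Fgf2, against 7638 without it, and was 1.66-fold lower (difference -0.73). Tpm1 had 25352 with Fgf2 and 28084 without it, a difference of -0.22. This probe lay at percentile 99.8 of all signals, close to the top of the array's range, where the highest signals were 41959 with Fgf2 and 44248 without it. Tpm3 stood on the other side, with 6621 with Fgf2 and 5432 without it, a difference of 0.28. By their brightest probes, 1 of the 3 tropomyosins measured was thus more than 1.5-fold apart, and the other 2 differed in opposite directions by less.

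Tpm2 and Tpm3 also had probes that were below detection on both arrays, 2 for Tpm2 and 3 for Tpm3, with signals from 121.5 to 158.5. Those of Tpm3 all had differences below 0, from -0.56 to -0.16, so the mean over its 4 probes was -0.19 in place of 0.28. For Tpm2 the mean over all its probes was -0.28 in place of -0.73, which is within 1.5-fold. Cald1 encodes caldesmon, which binds actin and tropomyosin and restrains myosin. It had signals of 1048 with Fgf2 and 1438 without it at its brightest probe, a difference of -0.51, and its second probe differed by -0.96. The median of these 4 genes was -0.36.

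Both alpha-actinin genes, whose products cross-link actin filaments and bind integrin tails, were lower with Fgf2. Actn1 had a signal of 8349 with Fgf2, against 13982 without it, and was 1.66-fold lower (-0.73). Actn4 was read by 3 detected probes, all lower with Fgf2. Its brightest had 1701 with Fgf2 and 2386 without it (-0.50), the next 1124 with Fgf2 and 1806 without it (-0.73), and the dimmest 386.2 with Fgf2 and 679.6 without it (-1.07). The size of the Actn4 difference therefore depended on the probe, from 1.41-fold to 2.10-fold lower, and its direction did not.

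The LIM proteins held the greatest differences in the set, in both directions. Of 18 LIM genes 16 had a probe and 13 were detected on both arrays, with a median difference of -0.71. Of the 13, 10 were below 0, beside 45.9% of all detected genes. At least 2-fold lower were 3, beside 2.52% of all, and at least 2-fold higher was 1, beside 1.8%. The class was also the largest in the set. The lowest of all was Lims2, which encodes PINCH-2, a partner of integrin-linked kinase at focal adhesions. Its probe ILMN_2738345 had a signal of 241.9 with Fgf2, against 640.8 without it, and was 4.15-fold lower, or 2.68-fold lower without background correction. Its 2 other probes were detected only without Fgf2, at 354.4 and 499.7, beside signals of 158.7 and 170.2 with it. After background correction they were at least 3.89-fold and at least 6.12-fold lower with Fgf2. The uncorrected signals of these 2 probes lay less far apart than these bounds. All 3 probes of Lims2 thus had their low signal on the array with Fgf2.

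Lims1, which encodes PINCH-1, the other PINCH protein, had signals of 209.2 with Fgf2 and 290.9 without it, a difference of -0.91. It was 1.40-fold lower without background correction, and its second probe was detected on neither array. With the mean of both probes its difference was -0.15.

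The Pdlim genes encode proteins that pair a PDZ domain with LIM domains and bind actin fibres, in several cases through alpha-actinin, and they did not move as 1 group. Pdlim5 was the lowest, with 407.6 with Fgf2, against 1016 without it, at its brightest probe (ILMN_2621862), a 3.12-fold lower level. Its other two detected probes had 308.5 and 229.6 with Fgf2, against 784.0 and 428.7 without it, and were 3.46-fold and 2.79-fold lower. The fourth probe of Pdlim5 was below detection on both arrays, at 116.7 with Fgf2 and 116.9 without it.

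Pdlim7, also called Enigma, had 5093 with Fgf2 and 9035 without it, and Pdlim4 had 669.2 with Fgf2 and 1114 without it, so that they were 1.85-fold and 1.81-fold lower. Pdlim1 differed by only -0.14, with 4590 with Fgf2 and 5008 without it. Pdlim2 went the other way, with 1217 with Fgf2 and 783.2 without it, 1.63-fold higher. All 4 probes of Pdlim2 were above 0, but they ranged from 0.07 to 0.93. Pdlim3 was detected on neither array.

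The four-and-a-half LIM genes Fhl1, Fhl2 and Fhl3 were all dimmer with Fgf2. Fhl1, a muscle and stress fibre protein, had 3124 with Fgf2, against 7151 without it, at probe ILMN_2713285, and 2720 with Fgf2, against 6652 without it, at probe ILMN_3117381. The 2 probes gave close values, 2.37-fold and 2.50-fold lower. Fhl2, which shuttles between adhesions and the nucleus as a transcriptional cofactor, had 1401 with Fgf2 and 2226 without it, 1.63-fold lower. Fhl3 was detected without Fgf2 only, at 204.9, and had 156.5 with Fgf2. It was at least 1.47-fold lower after background correction, and 1.31-fold lower without that correction.

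Zyx encodes zyxin, which is recruited to strained actin fibres. It had 17700 with Fgf2 and 23031 without it, a difference of -0.43. Its relative Lpp was below detection on both arrays. Lima1, or EPLIN, stabilises actin bundles, and its 2 probes disagreed in size: 1149 with Fgf2 and 1308 without it at one (-0.22), and 916.7 with Fgf2 and 1657 without it at the other (-0.92). Their mean levels were close, so the choice of the brighter probe changed with the normalization.

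Pxn encodes paxillin, the scaffold to which kinases and adaptors dock at adhesions. Its detected probe had 280.1 with Fgf2 and 194.7 without it and was 2.01-fold higher, just past the 2-fold mark. Without background correction Pxn was 1.43-fold higher, and with an offset of 50 it differed by 0.78. Its 2 other probes were below detection on both arrays, and with the mean of all its probes Pxn differed by 0.28. Csrp2, a small LIM protein that binds alpha-actinin, had 3513 with Fgf2 and 2756 without it, a difference of 0.36. The members next to the 2-fold mark on its low side were Fhl1 inside it, at -1.24, and Lims1 outside it, at -0.91.

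**Figure D3:**
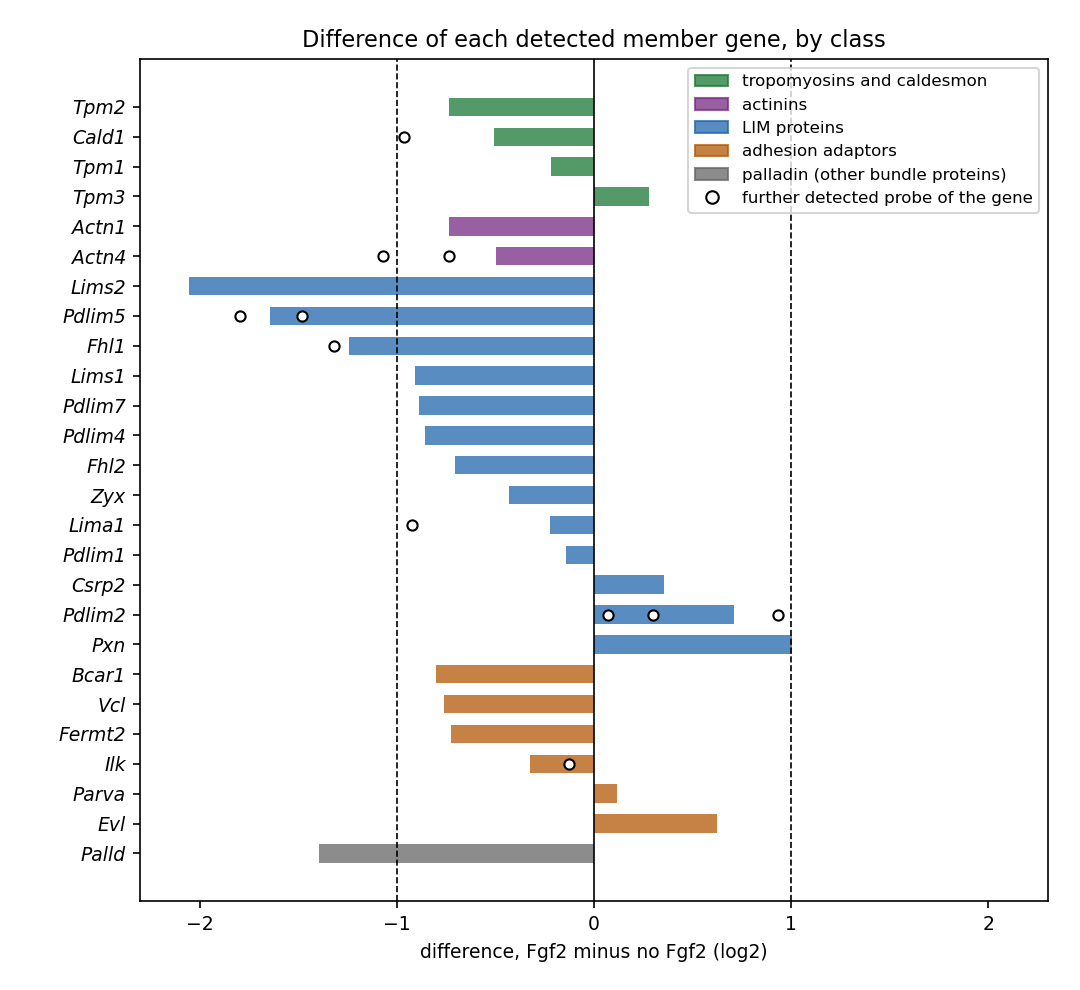
Difference, Fgf2 minus no Fgf2 (x axis, log2), of the 26 detected genes by their brightest probe (bars, coloured by class), with further detected probes of the same gene as open points and dashed lines at 2-fold. The bars reach from -2.05 for Lims2 to 1.01 for Pxn, 20 of 26 point to the low side, and the further probes lie on the same side of 0 as their bar.

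Among the adhesion adaptors, the genes that join integrins to actin were lower with Fgf2 or differed little. Vcl encodes vinculin, which binds talin and actin at loaded adhesions, and had 6625 with Fgf2, against 11202 without it, 1.69-fold lower. Fermt2, or kindlin-2, which activates integrins, had 3634 with Fgf2, against 5984 without it, 1.66-fold lower. The scaffold Bcar1, or p130Cas, had 322.3 with Fgf2 and 472.8 without it, 1.75-fold lower, and 1.48-fold lower without background correction. These 3 genes lay between -0.80 and -0.73.

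Integrin-linked kinase and alpha-parvin form a complex with PINCH. Ilk had 5153 with Fgf2 and 6412 without it at its brightest probe, a difference of -0.32, and -0.13 at its second detected probe. Its remaining probe was detected without Fgf2 only, at 191.4, and after background correction was at least 1.25-fold lower at 157.1 with Fgf2. Parva had 2126 with Fgf2 and 2004 without it, a difference of 0.12. In the complex, then, Lims2 was the gene furthest from 0, at -2.05. Lims1 stood at -0.91 but was within 1.5-fold without background correction, as Ilk and Parva were at their brightest probes in the main setting.

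The Ena/VASP genes encode actin filament elongation factors. Evl had 852.8 with Fgf2 and 591.4 without it, 1.54-fold higher. Enah was detected with Fgf2 only, at 185.6, and was at least 1.24-fold higher after background correction, and 1.12-fold higher without that correction. Vasp was detected without Fgf2 only, at 206.2, and was at least 1.49-fold lower after background correction, and 1.27-fold lower without that correction. The talin genes Tln1 and Tln2 were below detection on both arrays, with signals from 118.2 to 141.9 beside an estimated mean background of 128.4 with Fgf2 and 127.9 without it. A probe below detection gives no level for its gene.

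Of the remaining bundle proteins 1 was detected on both arrays. Palld encodes palladin, which cross-links actin and binds alpha-actinin, and had 766.4 with Fgf2, against 1841 without it, 2.63-fold lower (ILMN_3092653). Nexn and Synpo2 were detected on neither array.

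The medians by class were -0.36 for 4 tropomyosin and caldesmon genes, -0.61 for 2 alpha-actinins, -0.71 for 13 LIM genes and -0.52 for 6 adhesion adaptors. The ranges were -0.73 to 0.28 for tropomyosins and caldesmon, -0.73 to -0.50 for alpha-actinins, -2.05 to 1.01 for LIM genes and -0.80 to 0.62 for adaptors. All 4 ranges overlapped. The difference between classes was not tested.

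The deposited processed table of the authors gave close values for the same probes. On its log2 scale Lims2 had 6.72 with Fgf2 and 8.94 without it, and Pdlim5 had 8.02 with Fgf2 and 9.78 without it. Palld had 9.26 with Fgf2 and 10.73 without it, and Fhl1 had 11.57 with Fgf2 and 12.85 without it. The median difference of the 26 genes in that table was -0.63. It put 5 members at least 2-fold lower and 1 at least 2-fold higher, and the fifth was Lims1, at -1.04.

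**Figure D4:**
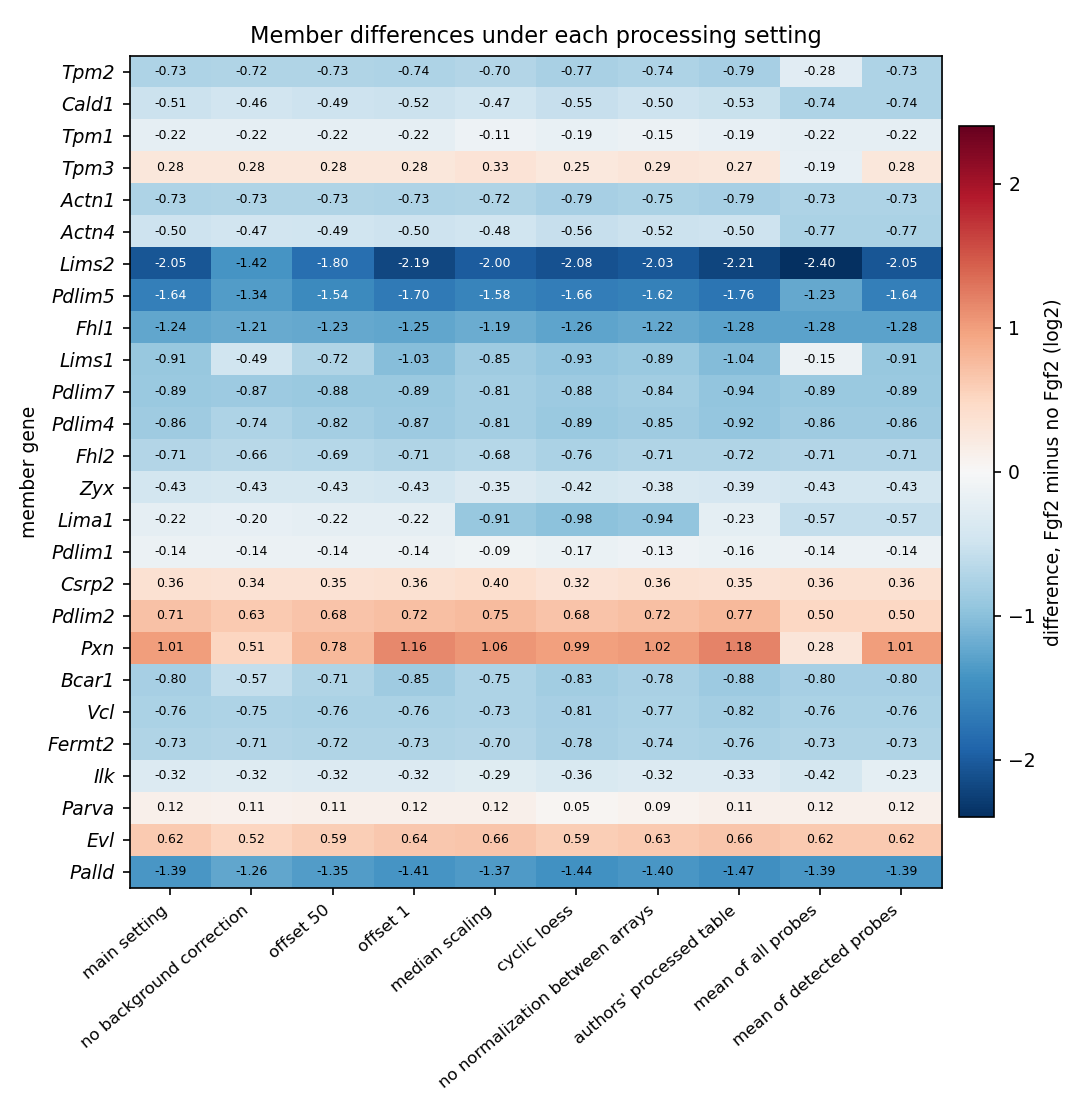
Differences, Fgf2 minus no Fgf2 (colour and printed value, log2), of the 26 detected genes (rows, by class) under 10 processing settings (columns). Each gene keeps its sign in every column except Tpm3, which stands at -0.19 with the mean of all probes and at 0.28 in the main setting. Lims2, Pxn, Lims1 and Lima1 vary the most between columns.

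Promoters of the members were read, as a description, from the RefSeq promoter table (build GRCm38.p6), which held 48 windows for 34 of the 44 genes. The windows ran from 250 bases before to 50 after the start and were searched on both strands. The motifs were the CArG box (the site SRF binds), GGAATG (the site of TEAD factors) and TGACTCA (the site of AP-1). The CArG box was searched as CCWWWWWWGG, where W is A or T. Matches of different motifs did not overlap in the members' windows. A CArG box lay in windows of 5 of the 34 genes (14.7%), namely Vcl, Fermt2, Fhl1, Fhl2 and Lima1, and in windows of 1.81% of all 27025 genes in the table. Several of these genes have more than 1 window, and per window the shares were 12.5% and 1.63%. GGAATG lay in windows of 10 of the 34 genes (29.4%), beside 16.6% of all genes, and TGACTCA in 3 (8.82%), beside 5.95%. Of the members at least 1.5-fold lower, 12 had a window, and of the other detected members 9. The CArG box lay in 4 of the 12 and 1 of the 9, GGAATG in 2 of the 12 and 4 of the 9, and TGACTCA in 1 of the 12 and 2 of the 9. The CArG gene among the 9 was Lima1, placed there by its brightest probe (-0.22), while its other probe differed by -0.92. This split therefore depends on the probe chosen. A match is a string of letters and not a bound site, and no binding was measured here.

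To show the CArG boxes, the 5 stretches of 50 bases outside Fhl1 are given 5′ to 3′ with the box in capitals. The box began 227 bases before the start in Vcl, 204 in Fermt2, 47 in Lima1, and 96 and 31 before the 2 starts of Fhl2.
Vcl (chr14:20929151-20929200, plus strand): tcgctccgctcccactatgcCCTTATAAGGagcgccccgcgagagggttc
Fermt2 (chr14:45530240-45530289, minus strand): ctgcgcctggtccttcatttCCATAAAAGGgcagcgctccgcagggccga
Lima1 (chr15:99820167-99820216, minus strand): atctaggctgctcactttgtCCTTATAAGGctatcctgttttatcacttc
Fhl2 (chr1:43196828-43196877, minus strand): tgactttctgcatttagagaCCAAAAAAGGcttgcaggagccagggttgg
Fhl2 (chr1:43163963-43164012, minus strand): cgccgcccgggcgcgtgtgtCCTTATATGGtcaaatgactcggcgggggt

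For the members with the greatest differences, 250 bases before 1 annotated start are shown for Fhl1, Palld and Pdlim5, with CArG and TGACTCA matches in capitals. Where a gene had several starts, the one whose window held the most of these motifs was chosen. The other windows of Fhl1 and Palld held neither motif. Lims2 is named only. Fhl1 held a CArG box 102 bases before this start, Palld held the reverse complement of TGACTCA 54 bases before it, and Pdlim5 held neither motif. Which start the RNA on the arrays came from was not measured, and Fhl1 and Pdlim5 each have 2 starts in the table and Palld 3.
Fhl1 (chrX:56779433-56779682, plus strand): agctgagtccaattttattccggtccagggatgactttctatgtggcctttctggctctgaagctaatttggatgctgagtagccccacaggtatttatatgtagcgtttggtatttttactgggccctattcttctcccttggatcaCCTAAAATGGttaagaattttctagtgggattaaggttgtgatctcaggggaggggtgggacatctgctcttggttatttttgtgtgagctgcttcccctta
Palld (chr8:61591140-61591389, minus strand): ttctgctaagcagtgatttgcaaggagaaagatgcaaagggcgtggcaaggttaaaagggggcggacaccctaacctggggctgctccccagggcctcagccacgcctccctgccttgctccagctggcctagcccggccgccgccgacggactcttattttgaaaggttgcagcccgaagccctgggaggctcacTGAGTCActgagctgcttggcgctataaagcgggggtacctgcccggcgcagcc
Pdlim5 (chr3:142395697-142395946, minus strand): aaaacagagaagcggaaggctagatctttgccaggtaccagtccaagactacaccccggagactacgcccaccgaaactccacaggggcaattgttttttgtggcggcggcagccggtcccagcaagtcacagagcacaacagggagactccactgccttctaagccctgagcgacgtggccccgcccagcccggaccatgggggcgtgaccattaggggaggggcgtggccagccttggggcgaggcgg

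Genes around the set were described from 3 further lists. Of 30 close relatives of the members 8 were detected on both arrays, with a median of -0.46. Of the 8, 7 were below 0, beside 45.9% of all detected genes. At least 2-fold lower were 2, beside 2.52% of all, and at least 2-fold higher were 0, beside 1.8%. Efs, a relative of Bcar1, had 200.3 with Fgf2 and 401.6 without it, 3.36-fold lower after background correction. The uncorrected signals of Efs lay less far apart than that. Csrp1, the paralog of Csrp2, had 2955 with Fgf2 and 8020 without it, 2.77-fold lower. Lmcd1 and Limd1 differed by -0.59 and -0.50. Csrp1 and Csrp2 therefore lay on opposite sides of 0, at -1.47 and 0.36.

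Of 20 adhesion signalling partners 16 were detected, with a median of -0.41. Of the 16, 9 (56.2%) were below 0, beside 45.9% of all detected genes, and 7 above it. At least 2-fold lower was 1, beside 2.52% of all, and at least 2-fold higher were 0, beside 1.8%. The 1 was the integrin beta 1 gene Itgb1, with 369.1 with Fgf2, against 673.8 without it, 2.23-fold lower after background correction. The uncorrected signals of Itgb1 lay less than 2-fold apart. The subunit genes Itga5 and Itgb5 were 1.79-fold and 1.78-fold lower, and Cav1, the caveolin gene, differed by -0.52. The highest was Sorbs3, which encodes vinexin, a vinculin-binding adaptor, at 0.39.

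Srf had a signal of 1330 with Fgf2 and 1921 without it, a difference of -0.56. The coactivator genes Mrtfa and Mrtfb were detected on neither array. Besides Srf, Elk3 was detected in this list of 7 genes, at 0.41.

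Markers were read to check the cells. All 9 fibroblast markers with a probe (Col1a1, Col1a2, Pdgfra, Pdgfrb, Thy1, Vim, S100a4, Dcn and Lum) were detected on both arrays, with summed signals of 45801 with Fgf2 and 49411 without it. These sums rested mostly on Vim and Thy1. Of the 9, 5 were at least 2-fold apart, 3 lower and 2 higher, beside 2.52% and 1.8% of all detected genes. Col1a1 (-2.53), Col1a2 (-1.85) and Pdgfrb (-1.80) were lower with Fgf2, and Lum (2.39) and Pdgfra (1.36) higher. Of 8 smooth muscle markers 4 were detected on both arrays and 2 on the array without Fgf2 only. The summed signals of the 8 were 37679 with Fgf2 and 59463 without it. They rested mostly on Acta2 and Actg2 and included undetected probes. All 4 detected on both arrays were below 0, beside 45.9% of all detected genes. The 4 were Actg2 (-2.53), Tagln (-1.85), Smtn (-0.48) and Acta2 (-0.25), some of which activated fibroblasts also express. Myh11, the smooth muscle myosin heavy chain gene, and Mylk were detected without Fgf2 only, and Cnn1 and Myocd on neither array. The summed signals of 8 skeletal and cardiac muscle markers were 2606 with Fgf2 and 4065 without it, undetected probes included. Of these, Des (-1.10), Acta1 (-0.97) and Tnnc1 (0.31) were detected on both arrays, and Myod1 and Myog on neither. Of 6 endothelial markers with a probe 0 were detected on both arrays, of 6 macrophage markers 2 (Lyz2 at 0.17 and Cd14 at 1.58), and of 6 epithelial markers 2 (Krt8 at -0.86 and Krt18 at 0.36), while Krt14 was detected without Fgf2 only. The smooth muscle markers were lower with Fgf2 as the set was, and their part in the result was not tested. In bulk RNA, fewer cells of a type and less RNA per cell cannot be told apart.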

How the data were processed

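Total RNA from 2 cultures was measured on 1 Illumina bead array each, and groups came from the agent labels. Per the labels' protocols, RNA was amplified into biotinylated cRNA, so the arrays have 1 colour. The authors deposited linear intensity values per probe, with medians of 148.5 with Fgf2 and 149.3 without it. No source used here says whether these were scaled between the arrays. Per the file headers, a detection p-value accompanies each signal. The authors also deposited processed values on a log2 scale. Both of its columns hold the same sorted values within 0.000671, as quantile normalization gives, and each ranks the probes as its own array's signals do. How its background was removed is not given in the sources used. Per the submitters' processing notes, the tools were BeadStudio 3.2, RMA and lumi, whose roles are not stated.

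Of 25697 probes, 10262 were detected with Fgf2 and 10564 without it, at a detection p below 0.01. Background was removed by limma 3.58.1 (R 4.3.3), with normexp parameters inferred from the detection p-values, an offset of 16, quantile normalization and log2. Platform annotation gave 23978 probes 1 symbol, 0 several and 1719 none, and 23962 were matched to RefSeq by Entrez number, including all 60 used for the set. A gene was represented by its brightest probe. For genes detected on 1 array a bound was computed against the other array's lowest detected level (5.99 with Fgf2 and 5.87 without it, log2). Where the probe's own level there was higher, that level was used. Such a bound holds for the main setting only. Without background correction Fhl3, Vasp and Enah lay below theirs. The deposited signals of the Lims2 and Ilk probes detected on 1 array also lay less far apart than the bounds of these probes. With 1 array per group no test was possible, and precision is limited by the number of arrays. The steps were tested on simulated arrays, in which only probes well above background were changed. That test did not cover changes in dim probes or the bounds. Plots used Python 3.11.15 with matplotlib 3.10.9.

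The members, classes and lists were chosen with earlier results of these data known. Every member is named. The result of 1 related list is not reported here. Of each other related list the 4 genes with the greatest absolute difference among those detected are named, and also Srf, Mrtfa and Mrtfb. Alternatives were other background corrections, offsets, normalizations, detection filters, probe rules and thresholds, and the authors' table.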

Additional observations from a re-analysis of the deposited data

How the results depend on the processing

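No paired analysis was possible because each group holds 1 array. The cause of the changes below was not tested, except where a setting admits other genes or probes. Over 13 alternatives, 25 of the 26 member differences kept their sign, and the exception was Tpm3 with the mean of all probes. Other detection filters, and the use of bounds for members detected on 1 array, left these 26 values unchanged by design. Only the remaining alternatives could change a sign. The median of the members ranged from -0.76 (cyclic loess) to -0.43 (no detection filter), and the count at least 1.5-fold lower from 11 to 15. Over the same settings the share of all genes at least 1.5-fold lower ranged from 4.28% (no background correction) to 9.64% (detected on at least 1 array), and the share at least 2-fold lower from 1.57% to 3.65%. The count of members at least 2-fold lower was 4 or 5 at every setting with that threshold, 2 at a threshold of 3-fold and 13 at 1.5-fold. The count at least 2-fold higher was 1, and became 0 without background correction, with an offset of 50, with cyclic loess, with the mean of all probes and at 3-fold, and 3 at 1.5-fold. The LIM median was -0.49 without background correction. With no detection filter, which admits undetected genes, the adaptor median was -0.24, that of the other bundle proteins -0.11 (3 genes, against -1.39 for Palld alone), that of the related genes outside the set -0.067 and that of the SRF list 0.26. With a detection p below 0.05 the SRF list stood at 0.083, against -0.072 for its 2 detected genes, and the adhesion partners at -0.18. An alternative chosen after seeing the data set members detected on only 1 array to their bound, and the median was then -0.55. Without background correction Lims1, Lims2, Pxn, Bcar1 and Pdlim5 moved by more than the SD between probes of a gene, each towards 0, while the other detected members moved by less.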
